A study of Rattus norvegicus with 46 samples.

Results

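The genes described here are 42 cell-cycle and DNA replication genes, chosen by name from the 30045 genes measured in lung and whole blood of rats that had breathed crystalline silica dust or filtered air. All 42 names were found in each of the 4 count tables. By the roles assigned with the list, 13 are replication genes (Mcm2 to Mcm7, Pcna, Rrm1, Rrm2, Tyms, Tk1, Cdc6 and E2f1) and 29 are grouped as mitotic genes, although Ccne1, the cyclin of the entry into replication, is among the latter. The animals were male Fischer 344 rats, an inbred strain, given whole-body exposure to filtered air or to Min-U-Sil 5, a fine crystalline silica, at 15 mg/m3 for 6 hours per day over 5 days. Lung and blood were taken 1 day (early) or 6 months (late) after the exposure. By the labels, the groups differed by tissue, time and exposure. Time carries the age of the animals with it, and each tissue and time had a count table of its own. Age and any processing batch therefore cannot be told apart from time, nor such a batch from tissue. No genotype was altered and no other agent was given, as far as the labels say. Each of the 8 groups held 6 samples, except late air lung, which held 4.

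A cell that is about to divide first copies its DNA and then separates the copies. The MCM proteins form the helicase that opens DNA at origins, Cdc6 loads that helicase, Pcna is the sliding clamp of the polymerases, and ribonucleotide reductase (Rrm1, Rrm2), thymidylate synthase (Tyms) and thymidine kinase (Tk1) supply the nucleotides. The mitotic genes encode the kinase Cdk1 with its cyclins, the motors and bundling proteins of the spindle, the proteins of the kinetochore and its checkpoint, and the ubiquitin ligase factors that end mitosis. Most adult lung cells are at rest, so the messenger RNAs of these genes are widely used as a measure of dividing cells in a tissue. Whole blood carries few dividing cells apart from activated lymphocytes. Because each library was made from bulk tissue, a change in the number of dividing cells cannot be told apart from a change in messenger RNA per cell.

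Genes of the 2 classes are known to carry different promoter elements: E2F sites at replication genes, and the cell cycle homology region (CHR) with CCAAT boxes at mitotic genes. RefSeq promoter windows of rat assembly GRCr8, each 300 bases long from 250 before to 50 after the annotated start, matched 33 of the 42 genes, 9 of them replication and 24 mitotic genes. Searched on both strands, a CHR (TTTGAA or TTCGAA) stood in 66.7% of the 24 mitotic windows, in 33.3% of the 9 replication windows and in 19.7% of all 33469 windows. A CCAAT box (CCAAT) stood in 75.0%, 66.7% and 37.5%, and an E2F site (TTTCCCGC, TTTCGCGC, TTTGCCGC or TTTGGCGC) in 4.17%, 66.7% and 2.14% of the same windows. The only mitotic window with an E2F site by these letters was that of Cdk1. CHR and CCAAT together stood in 58.3% of the mitotic windows, 22.2% of the replication windows and 7.95% of all windows. The windows of 4 genes are shown because those genes recur in the results, with the CHR, CCAAT and E2F matches in capitals and each read on its gene's own strand.
Mki67, chr1:199952544-199952843, minus strand: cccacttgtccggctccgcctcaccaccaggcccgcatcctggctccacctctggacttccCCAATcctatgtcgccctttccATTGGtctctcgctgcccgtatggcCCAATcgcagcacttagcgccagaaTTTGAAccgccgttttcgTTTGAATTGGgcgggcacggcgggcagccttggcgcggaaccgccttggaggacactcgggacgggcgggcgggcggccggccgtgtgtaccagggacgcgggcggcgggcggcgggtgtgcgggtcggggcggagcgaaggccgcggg
Ccnb1, chr2:33655176-33655475, minus strand: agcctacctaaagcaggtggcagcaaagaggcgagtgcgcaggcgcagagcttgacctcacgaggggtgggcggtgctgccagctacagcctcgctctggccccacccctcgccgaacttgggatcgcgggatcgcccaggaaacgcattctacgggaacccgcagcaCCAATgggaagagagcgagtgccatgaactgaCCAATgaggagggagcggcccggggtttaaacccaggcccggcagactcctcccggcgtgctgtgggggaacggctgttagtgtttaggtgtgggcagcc
Cdk1, chr20:19265043-19265342, plus strand: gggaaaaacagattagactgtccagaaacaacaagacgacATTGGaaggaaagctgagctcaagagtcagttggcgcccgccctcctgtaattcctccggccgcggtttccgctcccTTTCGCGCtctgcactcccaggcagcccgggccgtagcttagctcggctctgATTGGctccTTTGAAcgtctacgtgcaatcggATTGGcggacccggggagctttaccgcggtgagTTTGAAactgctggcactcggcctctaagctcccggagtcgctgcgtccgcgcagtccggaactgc
Mcm5, chr19:13488563-13488862, plus strand: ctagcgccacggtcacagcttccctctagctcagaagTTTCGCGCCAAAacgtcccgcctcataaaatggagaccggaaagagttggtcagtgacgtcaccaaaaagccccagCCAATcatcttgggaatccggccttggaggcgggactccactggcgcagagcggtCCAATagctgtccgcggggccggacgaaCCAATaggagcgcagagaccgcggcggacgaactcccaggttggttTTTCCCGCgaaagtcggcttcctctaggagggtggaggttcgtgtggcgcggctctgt
The Mki67 window held 2 CHR and 4 CCAAT matches, the Cdk1 window held matches of all 3 kinds, the Ccnb1 window held CCAAT boxes alone, and the Mcm5 window held E2F and CCAAT matches. These matches describe the letters of the windows and are not measured binding sites.

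The libraries held 13369309 to 24638427 counts per sample in lung and 10631882 to 17519959 in blood. Levels are given as CPM (counts relative to a fixed library total), scaled within each tissue and time for library composition, so that 3 counts in 1 library correspond to at most 0.224 CPM in lung and 0.403 CPM in blood. In lung, 5 pairs of samples within a group differed in fewer than 10% of genes at p under 0.05 in a chi-square test of their counts, against 21.3% to 73.1% in the other pairs of a group. These were early air 02 and 07, early air 04 and 08, late air 19 and 24, late air 20 and 25, and late silica 30 and 31. Each such pair differed by about the sampling noise and was averaged and counted as 1 library, named by both numbers. This left 4 air and 6 silica libraries in early lung, 2 air and 5 silica libraries in late lung, and 6 in each blood group. No label says that the samples of a group came from separate animals, and if they did not, the p-values reflect technical spread alone. The tissue markers followed the labels, with 10 type 2 cell markers summing to between 13954 and 55002 CPM in lung and 16 erythroid markers summing to between 50649 and 299627 CPM in blood, even though globin messenger RNA had been depleted.

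Group medians of the level of the 42 genes ran from 2.65 to 5.28 in lung and from 2.14 to 2.44 in blood, as mean log2 CPM. Early air lungs 02-07, 05 and 06 stood at 2.49, 2.64 and 2.65, while early air lung 04-08 stood at 4.15. The 6 early silica lungs lay between 3.53 and 4.12, with a median of 3.64. The late air lungs reached 5.34 and 5.21, and the 5 late silica lungs lay between 3.54 and 4.36, with a median of 3.67. Late silica lungs therefore covered about the same range as early silica lungs, and the widest differences were between the air lungs of the 2 times. The mitotic genes spread further than the replication genes: their mean log2 CPM ran from 1.92 in the lowest early air lung to 5.03 in the highest late air lung, against 3.76 to 6.03 for the replication genes. In blood the mean over all 42 genes ran from 1.84 to 3.84, and each of the 4 blood groups held 1 or 2 libraries far above the others.

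**Figure D1:**
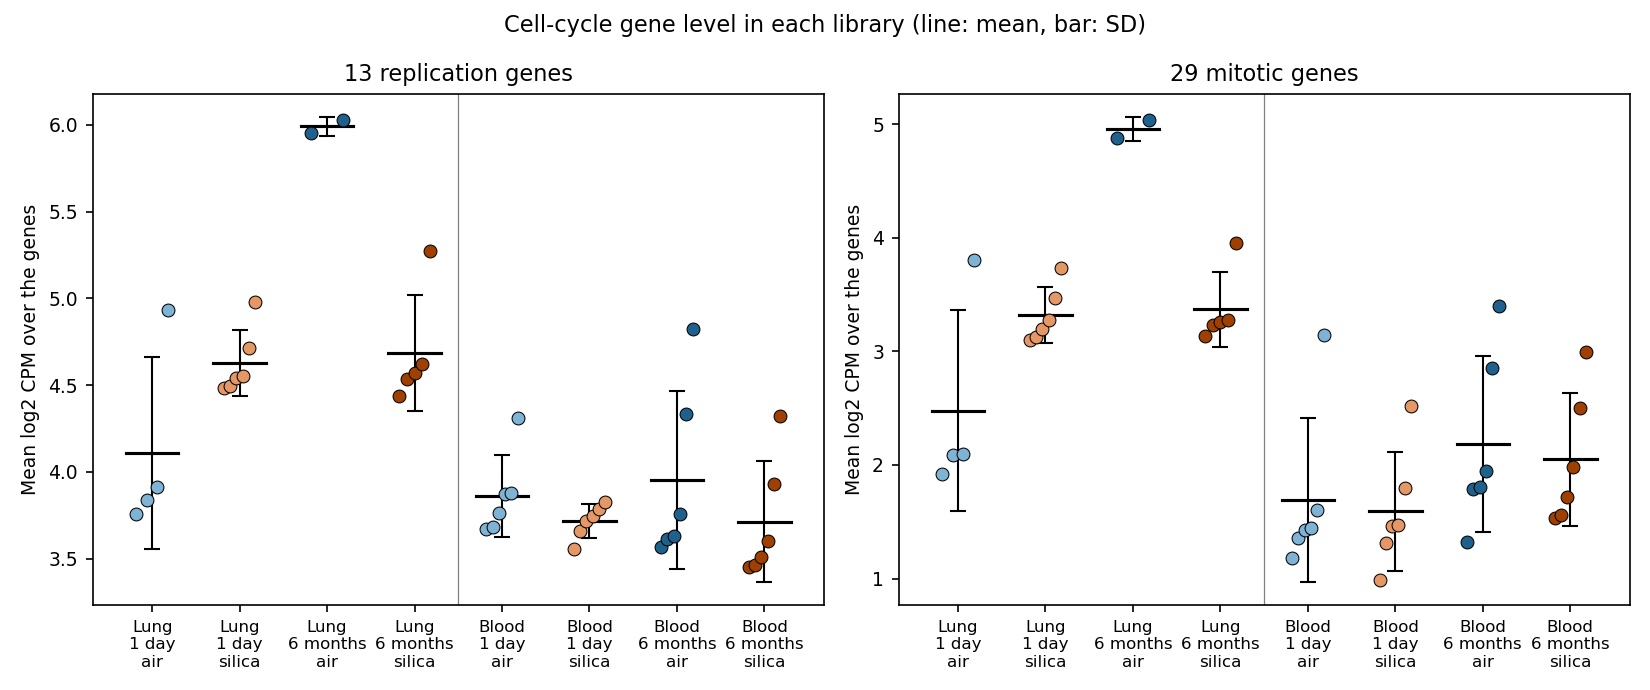
Each point is 1 library and shows the mean log2 CPM over the 13 replication genes (left) or the 29 mitotic genes (right), with lines for group means and bars for SD. In lung the 2 late air libraries stand highest for both classes, and 1 of the 4 early air libraries stands among the silica libraries.

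The first comparison asked which genes differed in lung 1 day after silica exposure, tested with edgeR's quasi-likelihood test and Benjamini-Hochberg adjustment over all genes. All 42 genes had a positive log2 fold change, with a median of 0.51 over a background median of 0.000942 for all 15724 genes tested, but only Prc1, which bundles the microtubules of the central spindle, rose past the threshold. Among all genes tested, 7.61% were higher and 4.07% lower at the adjusted p of 0.05, and an unadjusted p under 0.05 was found for 9 of the 42 members and for 24.5% of all genes. Prc1 was at 17.1, 23.2, 15.5 and 11.2 CPM in early air libraries 02-07, 04-08, 05 and 06, and ran from 31.3 through a median of 33.3 to 37.6 CPM in the 6 early silica libraries. Every silica lung stood above every air lung, and the log2 fold change was 1.02 ± 0.16, adjusted p = 0.00235. Only Rrm2 and E2f1 shared this separation of the groups, which 7.40% of all genes showed in the same direction.

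Early air lung 04-08 decided this count. It was singled out after the values were seen, because the members themselves were high in it. The counts and p-values without this library, here and below, therefore describe its weight and are not an independent test of an early rise. Without lung 04-08, edgeR's test called 36 of the 42 genes higher, 9 replication and 27 mitotic. Over all genes, 8.74% of 15884 were called higher and 5.36% lower, and the median log2 fold change of the members was 1.40. In 38 of 42 genes all 6 silica lungs stood above the 3 other air lungs, a separation seen in 11.6% of all genes. Lung 04-08 exceeded the 3 other air lungs in 40 genes, against 27.1% of all genes, with a median ratio of 3.38 to their mean. It exceeded all 6 silica lungs in 23 genes, against 18.8% of all genes. The ratio was larger for the mitotic genes (median 3.71) than for the replication genes (median 2.0), as a description of 1 library pair. Leaving out any other single library of this comparison left 1 gene called, against 5.35% to 6.76% of all genes called higher in those fits. The 6 genes not called without lung 04-08 were Tyms (0.03 ± 0.11, adjusted p = 0.908), Mcm7 (0.0685), E2f1 (0.0539), Mcm2 (0.0744), Aurka (0.0851) and Aurkb (0.595), where the later values are adjusted p alone.

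Among the replication genes, the factor that loads the helicase and the small subunit of ribonucleotide reductase had the largest early fold changes. Cdc6 was at 0.951, 4.59, 0.822 and 1.35 CPM in early air libraries 02-07, 04-08, 05 and 06, and ran from 3.28 through a median of 4.09 to 5.68 CPM in the 6 early silica libraries. With all libraries the log2 fold change was 1.13 ± 0.44, adjusted p = 0.138, and without air 04-08 it was 2.0 ± 0.23, adjusted p = 6.80e-05. Rrm2 was at 8.44, 29.7, 11.8 and 9.21 CPM in early air libraries 02-07, 04-08, 05 and 06, and ran from 30.0 through a median of 30.6 to 32.8 CPM in the 6 early silica libraries. Air 04-08 stood just below the lowest silica lung, and the log2 fold change was 1.07 ± 0.34, adjusted p = 0.0831 with it and 1.66 ± 0.09, adjusted p = 1.07e-07 without it. The reads of Rrm2 were shared with other transcripts in every sample, so its level is less certain. Mcm5, a helicase subunit, was at 6.78, 31.6, 9.19 and 7.92 CPM in early air libraries 02-07, 04-08, 05 and 06, and ran from 16.6 through a median of 19 to 31.3 CPM in the 6 early silica libraries. Air 04-08 was above all silica lungs, and the log2 fold change was 0.60 ± 0.46, adjusted p = 0.492.

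Mcm2, another helicase subunit, was at 22.4, 46.5, 22.6 and 24.9 CPM in early air libraries 02-07, 04-08, 05 and 06, and ran from 28.4 through a median of 34.3 to 52.7 CPM in the 6 early silica libraries. The log2 fold change was 0.33 ± 0.26, adjusted p = 0.518. Pcna was at 54.0, 83.7, 62.5 and 55.8 CPM in early air libraries 02-07, 04-08, 05 and 06, and ran from 65.0 through a median of 67.7 to 83.2 CPM in the 6 early silica libraries. Its log2 fold change was 0.15 ± 0.12, adjusted p = 0.524. For Tk1, the salvage enzyme, the values were 6.06, 38.3, 7.55 and 7.25 CPM in early air libraries 02-07, 04-08, 05 and 06, and ran from 11.6 through a median of 13.8 to 22.6 CPM in the 6 early silica libraries. Air 04-08 was above the highest silica lung, and the log2 fold change was 0.06 ± 0.56, adjusted p = 0.972. E2f1, the transcription factor of the entry into replication, was at 9.04, 11.2, 10.5 and 9.40 CPM in early air libraries 02-07, 04-08, 05 and 06, and ran from 11.5 through a median of 12.1 to 18.5 CPM in the 6 early silica libraries. Its groups did not overlap, but the log2 fold change of 0.40 ± 0.13, adjusted p = 0.074, missed the threshold. Tyms had the smallest fold change of the class, with values of 10.5, 11.8, 9.34 and 12.9 CPM in early air libraries 02-07, 04-08, 05 and 06, and ran from 9.55 through a median of 11.4 to 12.1 CPM in the 6 early silica libraries. The groups overlapped throughout, at 0.01 ± 0.10, adjusted p = 0.979. For the remaining Mcm3, Mcm4, Mcm6, Mcm7 and Rrm1 the log2 fold changes lay between 0.04 and 0.45, and none was called.

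Among the mitotic genes, the motor Kif20a and the exchange factor Ect2, both of which act with Prc1 in dividing the cell body, followed Prc1 in size. Kif20a was at 2.5, 11.3, 3.29 and 2.52 CPM in early air libraries 02-07, 04-08, 05 and 06, and ran from 7.02 through a median of 9.14 to 14.6 CPM in the 6 early silica libraries. Its log2 fold change was 0.95 ± 0.46, adjusted p = 0.248, and 1.77 ± 0.23, adjusted p = 0.000271 without air 04-08. Ect2 was at 3.09, 9.68, 3.44 and 3.26 CPM in early air libraries 02-07, 04-08, 05 and 06, and ran from 6.84 through a median of 9.19 to 12.3 CPM in the 6 early silica libraries. Its log2 fold change was 0.93 ± 0.34, adjusted p = 0.115, and 1.51 ± 0.17, adjusted p = 6.05e-05 without air 04-08. Ccnb1, the mitotic partner of Cdk1, had the smallest fold change of the class. It was at 1.78, 12.5, 1.94 and 2.58 CPM in early air libraries 02-07, 04-08, 05 and 06, and ran from 3.62 through a median of 5.74 to 6.40 CPM in the 6 early silica libraries. Air 04-08 stood above all silica lungs, and the log2 fold change was 0.21 ± 0.55, adjusted p = 0.873 with it and 1.36 ± 0.21, adjusted p = 0.000669 without it.

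Mki67, the proliferation antigen that coats mitotic chromosomes, was at 18.8, 102, 20.7 and 21.3 CPM in early air libraries 02-07, 04-08, 05 and 06, and ran from 48.4 through a median of 56.8 to 89.7 CPM in the 6 early silica libraries. The 3 other air lungs were below every silica lung, and the log2 fold change was 0.57 ± 0.53, adjusted p = 0.583, or 1.57 ± 0.22, adjusted p = 0.00276 without air 04-08. Top2a, the topoisomerase that untangles replicated chromosomes, was at 8.56, 63.8, 12.2 and 12.1 CPM in early air libraries 02-07, 04-08, 05 and 06, and ran from 21.6 through a median of 27.2 to 51.4 CPM in the 6 early silica libraries. Its log2 fold change was 0.33 ± 0.60, adjusted p = 0.804, or 1.47 ± 0.32, adjusted p = 0.0202 without air 04-08. Cdk1 was at 3.80, 14.8, 4.78 and 4.73 CPM in early air libraries 02-07, 04-08, 05 and 06, and ran from 11.5 through a median of 11.9 to 16.1 CPM in the 6 early silica libraries. Its log2 fold change was 0.84 ± 0.37, adjusted p = 0.203, or 1.5 ± 0.14, adjusted p = 9.05e-06 without air 04-08. All 3 genes thus showed the same layout, with air 04-08 inside or above the silica range.

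Foxm1 and Mybl2 are the transcription factors that switch on many of the other mitotic genes. Foxm1 was at 5.41, 11.6, 5.53 and 6.08 CPM in early air libraries 02-07, 04-08, 05 and 06, and ran from 8.28 through a median of 10.1 to 13.4 CPM in the 6 early silica libraries, at 0.50 ± 0.22, adjusted p = 0.196. Mybl2 was at 2.5, 7.58, 2.91 and 2.70 CPM in early air libraries 02-07, 04-08, 05 and 06, and ran from 3.97 through a median of 4.76 to 7.44 CPM in the 6 early silica libraries, at 0.41 ± 0.33, adjusted p = 0.513. Without air 04-08 both rose, by 0.83 ± 0.15 and 0.94 ± 0.21 on the log2 scale, at adjusted p = 0.00184 and 0.00943. The mitotic genes not given by library had log2 fold changes between 0.24 and 0.80 with all libraries.

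**Figure D2:**
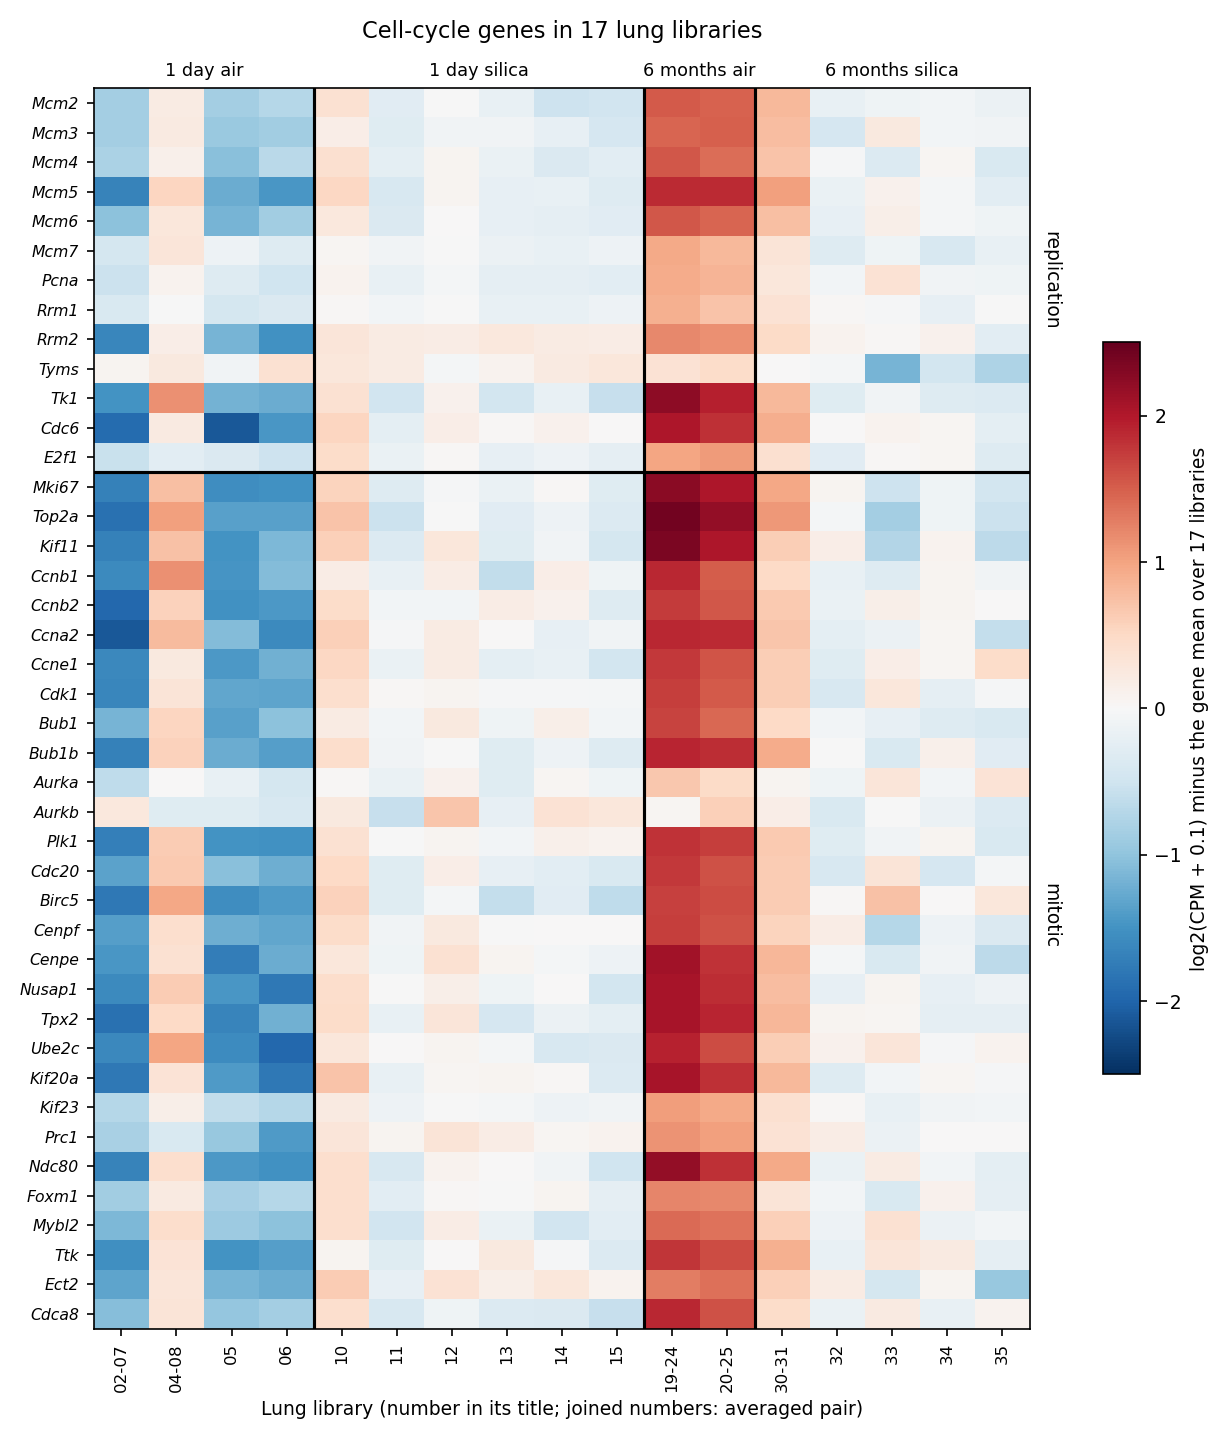
Each cell shows log2(CPM + 0.1) of 1 gene (rows, replication genes above the line) in 1 of 17 lung libraries (columns), minus the mean of that gene over the 17. The late air columns 19-24 and 20-25 are highest in nearly all rows, and the early air column 04-08 resembles the silica columns more than the other 3 early air columns.

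At 6 months the direction was the opposite: the genes were lower in silica lungs than in air lungs. All 42 had a negative log2 fold change, with a median of -1.52 against -0.00237 over all 16265 genes tested, and edgeR's test called 39 lower, 12 of 13 replication and 27 of 29 mitotic genes. Over all genes, 10.1% were called lower and 9.52% higher. In 41 of the 42 genes, all but Aurkb, every silica lung stood below both air lungs, a separation seen in 23.7% of all genes. The air group held only 2 libraries, and the count rested on both: without air 19-24 it was 0, against 0.287% of 16718 genes called lower and 0.0538% called higher, and without air 20-25 it was 24, against 3.56% of 16623 genes called lower and 2.83% called higher. In the fit without air 19-24, an unadjusted p under 0.05 was found for 40 members and for 18.0% of all genes. In those fits the lone air library is assumed to vary like the silica libraries. The median was -1.39 and -1.60 in these fits, and all 42 fold changes stayed negative. Leaving out any 1 silica library gave 38 or 39 calls, against 5.8% to 12.7% of all genes called lower in those fits.

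Of the replication genes, Tk1 and Cdc6 differed most. Tk1 was at 81.4 and 66.5 CPM in the late air libraries and 30.5, 13.9, 16.2, 13.7 and 13.5 CPM in the late silica libraries, and fell by 2.07 ± 0.31 on the log2 scale at adjusted p = 0.00778. Cdc6 was at 16 and 14.1 CPM in the late air libraries and 7.40, 3.89, 4.12, 4.03 and 3.27 CPM in the late silica libraries, a log2 fold change of -1.73 ± 0.29, adjusted p = 0.00967. Mcm5 was at 79.4 and 80.1 CPM in the late air libraries and 44.8, 19.4, 23.4, 21.2 and 18.2 CPM in the late silica libraries, a log2 fold change of -1.65 ± 0.32, adjusted p = 0.014. In each of these genes silica 30-31, the averaged pair, was the highest silica library and the other 4 lay close together. Mcm2 was at 117 and 113 CPM in the late air libraries and 71.5, 35.7, 37.9, 38.5 and 36.8 CPM in the late silica libraries, a log2 fold change of -1.38 ± 0.27, adjusted p = 0.0135. Pcna was at 150.1 and 142 CPM in the late air libraries and 95, 74.9, 101, 73.9 and 72.7 CPM in the late silica libraries, with silica 33 above silica 30-31, and its log2 fold change was -0.81 ± 0.16, adjusted p = 0.0139. Pcna also serves in DNA repair, and its difference was among the smaller ones of the class.

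Rrm2 was at 61.3 and 58.3 CPM in the late air libraries and 36.7, 28.3, 27, 28.7 and 22.1 CPM in the late silica libraries, a log2 fold change of -1.07 ± 0.17, adjusted p = 0.00907. Rrm1, its large partner subunit, had the smallest fold change of the class. It was at 119.6 and 106 CPM in the late air libraries and 83.4, 65.9, 62.9, 56.2 and 64.1 CPM in the late silica libraries, a log2 fold change of -0.76 ± 0.15, adjusted p = 0.0152. E2f1 was at 26.7 and 28.1 CPM in the late air libraries and 17.7, 10.9, 13.7, 13.8 and 10.7 CPM in the late silica libraries, a log2 fold change of -1.04 ± 0.20, adjusted p = 0.0133. Tyms was the replication gene not called. It was at 12.7 and 13.6 CPM in the late air libraries and 9.93, 9.54, 4.36, 7.14 and 5.78 CPM in the late silica libraries, and its log2 fold change of -0.84 ± 0.31, adjusted p = 0.0966, missed the threshold. The helicase subunits Mcm3, Mcm4, Mcm6 and Mcm7 all fell, with log2 fold changes from -1.42 to -1.0.

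The mitotic genes with the largest late differences were Top2a, the spindle motor Kif11 and Mki67. Top2a was at 167 and 143 CPM in the late air libraries and 66.4, 30.3, 17.3, 28.8 and 21.6 CPM in the late silica libraries, a log2 fold change of -2.24 ± 0.44, adjusted p = 0.0141. Kif11 was at 65.8 and 52.1 CPM in the late air libraries and 19.6, 14.2, 7.65, 13.6 and 8.04 CPM in the late silica libraries, a log2 fold change of -2.22 ± 0.33, adjusted p = 0.00778. Mki67 was at 290.4 and 246 CPM in the late air libraries and 118, 63.5, 42.5, 56.1 and 44.2 CPM in the late silica libraries, a log2 fold change of -2.05 ± 0.36, adjusted p = 0.0107. In all 3 genes the lower air lung stood above the highest silica library, 30-31. Cdk1 was at 39.8 and 34.7 CPM in the late air libraries and 18.5, 9.05, 14.5, 10.2 and 11.8 CPM in the late silica libraries, and Ccnb1 at 21 and 16 CPM in the late air libraries and 7.91, 4.87, 4.41, 5.88 and 5.22 CPM in the late silica libraries. Their log2 fold changes were -1.54 ± 0.26, adjusted p = 0.00922, and -1.71 ± 0.23, adjusted p = 0.00682. The transcription factor Foxm1 was at 23.3 and 22.9 CPM in the late air libraries and 12.5, 9.46, 7.65, 10.7 and 8.48 CPM in the late silica libraries, and Mybl2 at 15.1 and 14.5 CPM in the late air libraries and 8.41, 5.08, 7.24, 5.00 and 5.34 CPM in the late silica libraries. The log2 fold changes were -1.24 ± 0.19, adjusted p = 0.00827, and -1.25 ± 0.23, adjusted p = 0.0122.

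By role, all 4 cyclins among the mitotic genes fell, with log2 fold changes from -1.87 (Ccna2) to -1.48 (Ccne1). The kinetochore and checkpoint genes Bub1, Bub1b, Ttk, Ndc80, Cenpe and Cenpf fell as well, from -1.94 (Cenpe) to -1.47 (Ttk). Plk1, the kinase of mitotic entry, changed by -1.74, and Cdc20 and Ube2c, which drive the destruction of cyclins, by -1.62 and -1.56. Of the spindle midzone genes, Kif20a changed by -1.82, while Kif23 and Prc1 changed by -0.97 and -0.98. The Aurora kinases stood apart: Aurka was at 15.8 and 13.8 CPM in the late air libraries and 10.4, 9.13, 12.2, 9.37 and 12.6 CPM in the late silica libraries, and Aurkb at 50.8 and 73.8 CPM in the late air libraries and 55.0, 37.8, 48.7, 43.9 and 38.7 CPM in the late silica libraries. Their log2 fold changes of -0.47 ± 0.18, adjusted p = 0.104, and -0.48 ± 0.19, adjusted p = 0.128, missed the threshold. Birc5 and Cdca8, which form 1 complex with the Aurkb protein, did fall, by 1.32 and 1.66 on the log2 scale. Aurkb counts were not whole in 21.7% of samples, so some of its reads were shared between transcripts. Shared reads were not particular to Aurkb. Counts were not whole for Ccnb2 and Rrm2 in 100% of samples, for Mcm7 in 19.6% and for Nusap1 in 17.4%, and these genes were called lower. In the early lungs Aurkb also ranged from 33 to 78.7 CPM.

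**Figure D3:**
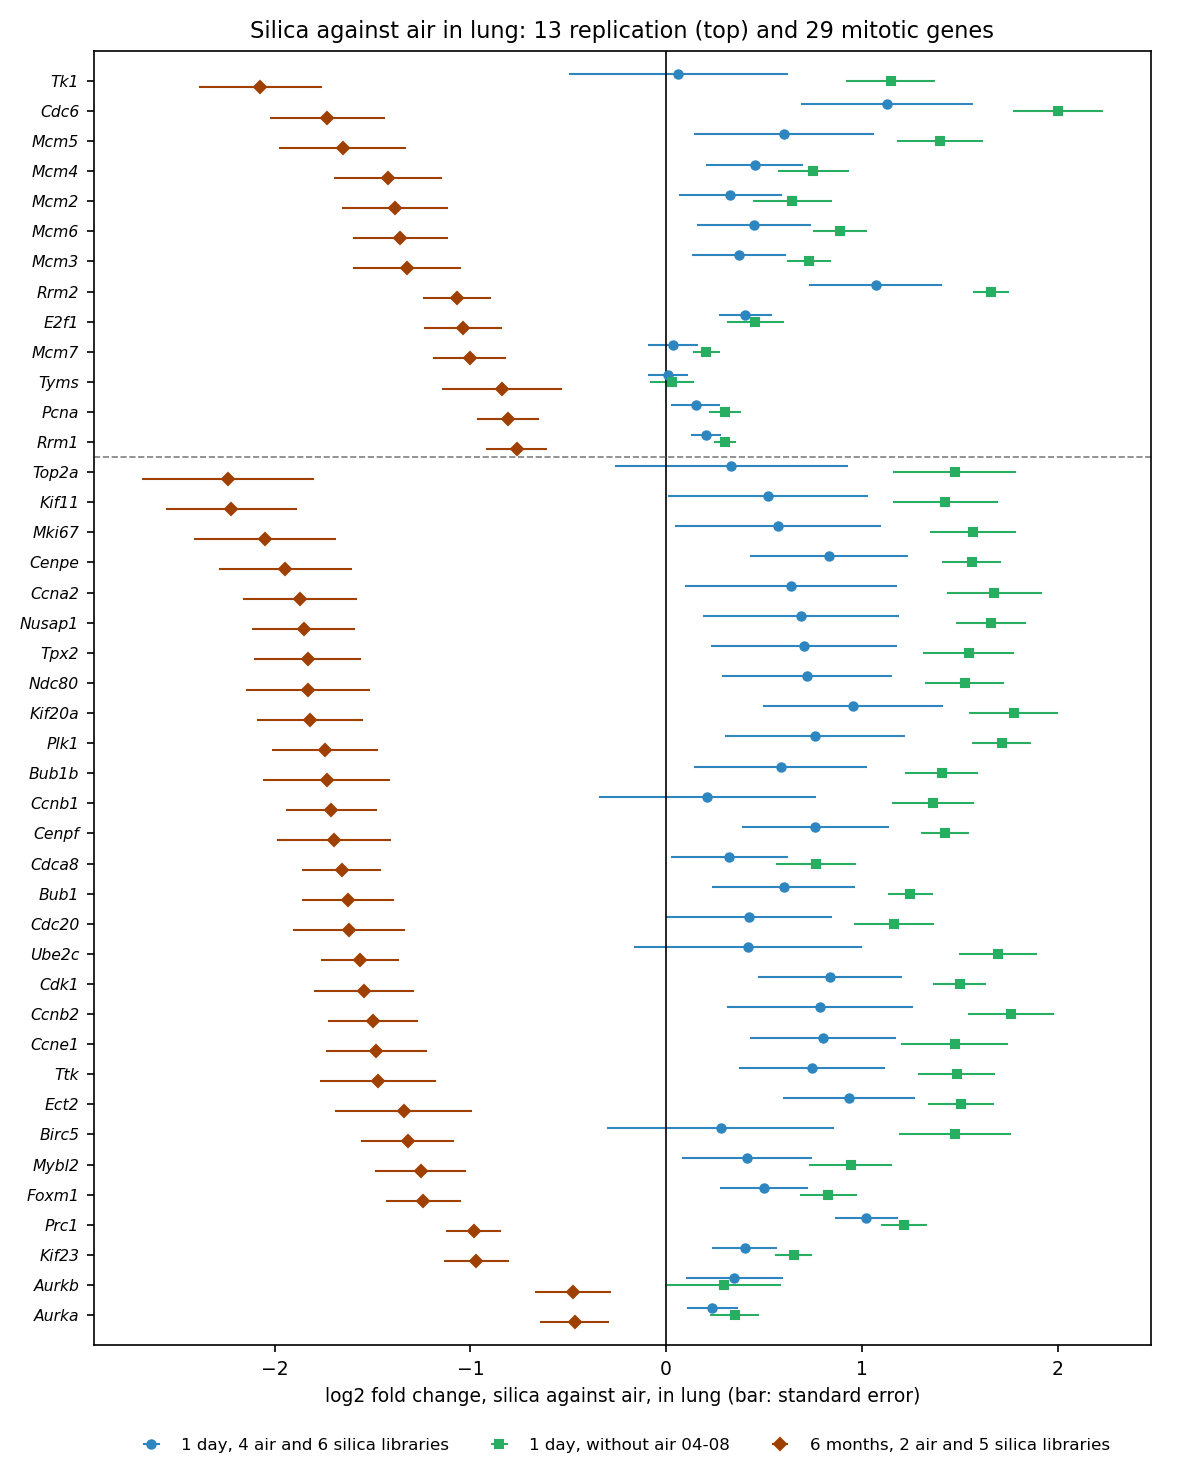
Points are log2 fold changes of silica against air in lung from edgeR, with bars for standard errors, for 13 replication genes (above the dashed line) and 29 mitotic genes. The 1-day values lie above 0 and move further up without air 04-08 for 41 of the 42 genes, all but Aurkb (0.35 with and 0.29 without it), and the 6-month values of all 42 genes lie below 0.

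The difference between the 2 effects was itself tested as an interaction. The silica effect at 6 months minus that at 1 day was negative for all 42 genes, with a median log2 difference of -2.16, and edgeR called 40 lower, against 14.6% of 16568 genes called lower and 12.2% called higher. The largest log2 differences were Cdc6 (-2.88 ± 0.59, adjusted p = 0.00264), Cenpe (-2.80 ± 0.57, adjusted p = 0.00269), Kif20a (-2.80 ± 0.59, adjusted p = 0.00328) and Kif11 (-2.76 ± 0.67, adjusted p = 0.0077). Mcm5 and Rrm2 followed among the replication genes (-2.28 ± 0.61, adjusted p = 0.0132, and -2.16 ± 0.42, adjusted p = 0.00205). Cenpe, a kinetochore motor, was at 4.10, 14.9, 3.36 and 4.73 CPM in early air libraries 02-07, 04-08, 05 and 06, and ran from 10.4 through a median of 11.4 to 14.8 CPM in the 6 early silica libraries. It was at 49.1 and 40.2 CPM in the late air libraries and 20.2, 11, 8.77, 10.7 and 7.23 CPM in the late silica libraries. The smallest called differences were those of Aurka (-0.73 ± 0.22, adjusted p = 0.0216) and Tyms (-0.87 ± 0.29, adjusted p = 0.0376). Aurkb (-0.85 ± 0.34, adjusted p = 0.0736) and Birc5 (-1.62 ± 0.72, adjusted p = 0.108) were not called. Leaving out 1 library at a time gave 25 to 41 calls, with 25 when late air 19-24 was left out, against 6.24% of all genes called lower and 3.47% called higher in that fit. In the lists of other cycle genes, the same difference was called as follows. Of 49 other replication genes, 0 were called higher and 44 lower, with a median of -1.33, and among the smallest p-values were those of Slbp (-1.22) and Fam111a (-2.23). Of 67 other mitotic genes, 0 were called higher and 63 lower, with a median of -2.15, and the smallest p-values were those of Iqgap3 (-1.24), Anln (-2.57) and Smc4 (-1.28). Of 13 genes of cycle entry, 1 was called higher and 6 lower, with a median of -0.55, and the smallest p-values were those of Ccnd3 (-1.07), Skp2 (-1.28) and E2f3 (-1.90). Of 25 restraining genes, 3 were called higher and 10 lower, with a median of -0.51, and the smallest p-values were those of Lin9 (-1.73), Cdkn2b (0.58) and Cdkn2c (-0.90).

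The air lungs of the 2 times lay further apart than the silica lungs. The CPM of the 2 times were scaled separately, so the ratios here are a description. Late lungs were not tested against early lungs of the same exposure, where time cannot be told apart from age or a processing batch. Between air lungs, the late group median CPM divided by the early one had a median of 7.77 over the 42 genes, from 1.18 (Tyms) to 13.1 (Cdc6). Between silica lungs the same ratio had a median of 1.02, from 0.624 (Tyms) to 1.5 (Birc5). For 40 of 42 genes, all but Tyms and Aurkb, both late air lungs were above each of the other 15 lung libraries, as they were for 17.8% of 16568 genes. For all 42 genes the ranges of early and late silica lungs overlapped, as they did for 92.3% of all genes. Within the late silica group, library 30-31 was the highest for 39 genes, and for 22.8% of all genes tested.

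Other genes of the same processes, in lists written with earlier results of these data known, were read beside the members in lung. At 1 day, 2 of 49 other replication genes rose and none fell, with a median log2 fold change of 0.25, and 4 of 66 other mitotic genes rose and none fell, with a median of 0.53, while 7.61% of all genes rose. Among the replication genes with the smallest p-values were Fam111a (1.14 ± 0.23, adjusted p = 0.00895), which helps forks past obstacles, and the cyclin Ccne2 (0.89 ± 0.28, adjusted p = 0.0554). The mitotic genes were Iqgap3 (0.74 ± 0.12, adjusted p = 0.00132) and the centromere genes Cenpi (1.21 ± 0.25, adjusted p = 0.00733) and Cenpu (1.88 ± 0.50, adjusted p = 0.0306). Without air 04-08, 29 of 49 and 56 of 66 rose, against 8.74% of all genes, so these lists moved with the same library as the members. None of 13 genes of the entry from rest into the cycle was called, and the smallest p-values were those of Cdc25a (0.29 ± 0.11, adjusted p = 0.102), Mycn (0.53 ± 0.25, adjusted p = 0.205) and Ccnd2 (0.44 ± 0.21, adjusted p = 0.235). Of 25 genes that restrain the cycle, the p53 target Ccng1 rose (0.19 ± 0.05, adjusted p = 0.0258), and the kinase inhibitor Cdkn1b (-0.24 ± 0.04, adjusted p = 0.00218) and the pocket protein Rbl2 (-0.15 ± 0.05, adjusted p = 0.0454) fell.

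At 6 months, 41 of 49 other replication genes and 61 of 67 other mitotic genes fell and none rose, with medians of -1.06 and -1.52, while 10.1% of all genes fell. The smallest p-values among the former were those of the histone messenger RNA binder Slbp (-0.94 ± 0.14, adjusted p = 0.00771), the polymerase subunit Pole2 (-1.77 ± 0.27, adjusted p = 0.00778) and the clamp loader subunit Rfc5 (-1.24 ± 0.19, adjusted p = 0.00785). Among the latter they were those of the motor Kif20b (-2.04 ± 0.25, adjusted p = 0.00528), the kinetochore subunit Spc25 (-1.51 ± 0.21, adjusted p = 0.00682) and the condensin subunit Ncapd2 (-1.55 ± 0.21, adjusted p = 0.00682). Of the 13 genes of cycle entry, 3 fell, among them the D-type cyclin Ccnd3 (-1.09 ± 0.12, adjusted p = 0.00481) and the ubiquitin ligase subunit Skp2 (-1.14 ± 0.24, adjusted p = 0.0174), and E2f2 rose (0.82 ± 0.14, adjusted p = 0.0093). Of the 25 restraining genes 8 fell and 1 rose. Cdkn2a, which encodes inhibitors of the D-type cyclin kinases and of p53 breakdown, changed by -2.79 ± 0.39, adjusted p = 0.00682, Cdkn2c by -0.92 ± 0.15, adjusted p = 0.00919, and Cdkn2b rose (0.66 ± 0.12, adjusted p = 0.0113). The repressors E2f7 (-2.12 ± 0.39, adjusted p = 0.0122) and E2f8 (-2.33 ± 0.43, adjusted p = 0.0122), themselves transcribed in dividing cells, also fell, and were named after their values were seen.

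Of the cell type lists read in lung, that of natural killer cells was highest in the same 5 libraries as the members. The summed level of 13 markers of natural killer cells and large granular lymphocytes, which kill target cells with perforin and granzymes, was 3416 and 2950.4 CPM in late air lungs 19-24 and 20-25. It lay between 327 and 1015 CPM in late silica lungs, between 306 and 660 CPM in early air lungs and between 203 and 742 CPM in early silica lungs. None of the 13 was at 0 in all lung libraries. At 6 months 11 of the 12 markers tested fell in silica lungs and none rose, with a median log2 fold change of -2.49, while at 1 day none of 11 was called. The perforin gene Prf1 was at 1398 and 826 CPM in the late air lungs and at 309, 137, 103, 109 and 112 CPM in the late silica lungs, and the transcription factor Eomes at 303 and 283 and at 51.9, 16.9, 12.9, 13.8 and 17.3 CPM. The 5 lung libraries with the highest member level (19-24, 20-25, 30-31, early air 04-08 and early silica 10) were also the 5 with the highest sum of these markers. Early silica lungs 11, 13 and 15 were at 203, 299 and 264 CPM of these markers, with member levels of 3.55, 3.62 and 3.53. Early silica lungs 10, 12 and 14 were at 742, 427 and 409 CPM, with member levels of 4.12, 3.86 and 3.66. The 3 early air lungs with member levels of 2.49 to 2.65 had marker sums of 339, 306 and 329.8 CPM. The part of these cells in the member levels was not tested.

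The T cell list of 12 genes split at 6 months, with 7 higher and 3 lower in silica lungs. Cd3e (1.99 ± 0.37, adjusted p = 0.0123), Cd3d (2.23 ± 0.44, adjusted p = 0.0141) and Cd3g (2.22 ± 0.38, adjusted p = 0.0101), the chains of the T cell receptor complex, rose, and Cd8a (-2.55 ± 0.50, adjusted p = 0.0141), the kinase Lck (-1.86 ± 0.38, adjusted p = 0.0164) and the adaptor Lat (-1.84 ± 0.43, adjusted p = 0.0237) fell. The summed T cell level was 853 and 1046 CPM in late air lungs and 271 to 571 CPM in late silica lungs. It was 216 to 330 CPM in early air and 221 to 372 CPM in early silica lungs. Of the 5 lung libraries with the highest member level, 4 were also among the 5 with the highest sum of this list. At 6 months that sum ran opposite to Cd3e, Cd3d and Cd3g, so it does not stand for T cells as a whole. Thymocyte markers, which would mark a piece of thymus among the tissue, summed to between 24.3 and 35.8 CPM in every lung library, and Rag1 and Rag2 were at 0 in all of them. Alveolar macrophage markers moved with exposure in both times, with 7 of 10 higher and 1 lower at 1 day and 7 of 11 higher and 1 lower at 6 months. Their sums were 733 to 828 CPM in early air, 1359 to 1533 in early silica, 1038 and 1052 in late air and 1278 to 2732 in late silica lungs. Neutrophil markers were higher for 6 of 8 genes at 1 day and 7 of 8 at 6 months. The sum ran from 400.4 to 469 CPM in early air, 1209 to 1622 in early silica, 232 to 291 in late air and 1196 to 3316 in late silica lungs. Type 2 cell markers were higher for 7 of 10 genes at 1 day and 8 of 10 at 6 months. None of the 5 libraries with the highest member level was among the 5 with the highest alveolar macrophage, neutrophil or type 2 cell sum. The part of these cells in the early differences was not tested.

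**Figure D4:**
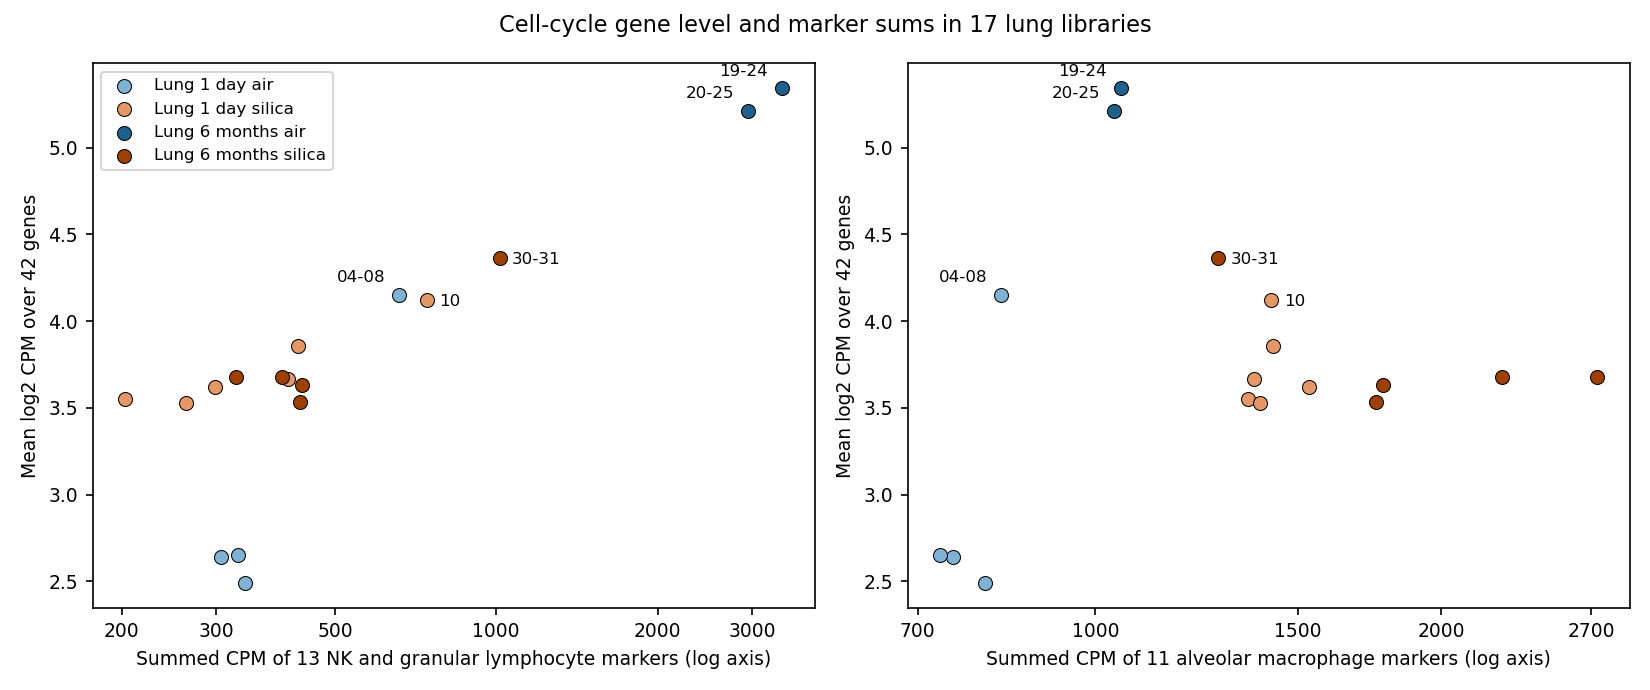
Each point is 1 of 17 lung libraries, with the mean log2 CPM of the 42 genes against the summed CPM (log axis) of 13 markers of natural killer and granular lymphocytes (left) or 11 markers of alveolar macrophages (right). The labelled libraries are the 5 with the highest member level, and they are also the 5 rightmost points of the left panel.

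In blood, no member was called at either time. At 1 day, 40 of the 42 genes passed the filter on low counts (Ttk and Ect2 did not), and edgeR called 0 of them, against 0% of 11876 genes in each direction. No member had an unadjusted p under 0.05, against 3.62% of all genes, and DESeq2 also called 0. The median log2 fold change was -0.22, and 0.0982 without air 04, the library with the highest level of its group. At 6 months, 41 genes passed the filter (Ttk did not), and edgeR called 0 of them, against 0% of 11615 genes in each direction. Mcm3, Mcm4 and Kif11, named for this after their values were seen, had an unadjusted p under 0.05, as did 6.20% of all genes, and DESeq2 called 0 members. The median was -0.40, and 0.0338 without air 25. In both times the sign of the median rested on 1 air library. The silica effect at 6 months minus that at 1 day was called for 0 of 42 genes, against 0% of 12264 genes in each direction. No member had an unadjusted p under 0.05, against 2.73% of all genes, and DESeq2 called 0. The genes farthest apart in this were the checkpoint kinases Ttk (-1.14 ± 1.04, adjusted p = 0.999) and Bub1b (-0.88 ± 0.95, adjusted p = 0.999), the cyclin Ccnb2 (0.87 ± 0.64, adjusted p = 0.999) and the helicase subunits Mcm5 (-0.64 ± 0.61, adjusted p = 0.999), Mcm4 (-0.63 ± 0.45, adjusted p = 0.999) and Mcm2 (-0.58 ± 0.41, adjusted p = 0.999), and the nearest were Aurka and Rrm2, at 0.02 and 0.03 on the log2 scale.

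The lists of other cycle genes gave no call in blood at either time. At 1 day, where values in brackets are log2 fold changes, all 4 medians lay between -0.19 and 0.02. The 42 other replication genes tested had a median of -0.16, and the smallest p-values were those of Rpa2 (-0.32), Cdc7 (-0.69) and Fen1 (-0.43). The 54 other mitotic genes tested had a median of -0.19, and the smallest p-values were those of Ncapd2 (-0.45), Hmgb2 (0.27) and Incenp (-0.37). The 12 genes of cycle entry tested had a median of 0.02, and the smallest p-values were those of Ccnd1 (0.55), Cdk6 (-0.33) and Myc (-0.28). The 21 restraining genes tested had a median of -0.07, and the smallest p-values were those of E2f6 (-0.32), Wee1 (-0.40) and Cdkn1b (0.20). At 6 months the medians of the replication and mitotic lists were lower, without a call. The 43 other replication genes tested had a median of -0.49, and among the smallest p-values were those of Dbf4 (-0.52) and Cdt1 (-0.84). The 59 other mitotic genes tested had a median of -0.30, and the smallest p-values were those of Ncapd2 (-0.82), Trip13 (-1.09) and Incenp (-0.84). The 12 genes of cycle entry tested had a median of -0.23, and the smallest p-values were those of Myc (-0.60), Ccnd2 (-0.95) and Cdk2 (-0.32). The 22 restraining genes tested had a median of 0.03, and the smallest p-values were those of E2f4 (-0.33), Ccng2 (0.28) and Cdkn2b (0.45).

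The levels in blood are given as the lowest, median and highest of the 6 libraries of a group. Mki67 was at 10.3, 17.2 and 36.3 CPM in early air, 6.64, 16 and 29.7 in early silica, 20.7, 30.8 and 55.6 in late air and 20.8, 28.1 and 75.0 in late silica blood. The groups overlapped, with log2 fold changes of -0.22 ± 0.35, adjusted p = 1, and 0.12 ± 0.33, adjusted p = 0.89. Top2a was at 2.46, 3.34 and 25.7 CPM in early air, 2.07, 3.71 and 12.7 in early silica, 2.84, 5.50 and 40.8 in late air and 1.59, 7.14 and 12.8 in late silica blood. The highest libraries were early air 04, early silica 16, late air 25 and late silica 31. Cdk1 was at 0.981, 1.32 and 11.4 CPM in early air, 0.971, 2.21 and 5.44 in early silica, 1.32, 1.90 and 13 in late air and 0.595, 2.52 and 4.35 in late silica blood. Ccnb1 was at 1.41, 1.52 and 9.01 CPM in early air, 1.52, 1.86 and 4.6 in early silica, 1.26, 2.47 and 6.82 in late air and 1.25, 1.63 and 3.36 in late silica blood. Both are mitotic entry genes, and in both the highest early value came from air 04. Foxm1 was at 0.987, 1.23 and 4.28 CPM in early air, 0.633, 1.71 and 2.81 in early silica, 0.971, 1.62 and 5.21 in late air and 0.677, 1.49 and 3.90 in late silica blood, and Mybl2 at 2.86, 5.37 and 7.33 CPM in early air, 2.49, 3.74 and 10.8 in early silica, 4.68, 7.37 and 9.22 in late air and 3.87, 8.23 and 22.7 in late silica blood. The groups overlapped for both transcription factors.

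Among the replication genes in blood, Mcm2 was at 13.6, 14.8 and 20.3 CPM in early air, 11.6, 13.7 and 19.4 in early silica, 9.02, 12.7 and 51.3 in late air and 9.48, 12.9 and 14.9 in late silica blood. Mcm5 was at 5.73, 6.63 and 16.4 CPM in early air, 3.44, 6.10 and 9.8 in early silica, 3.95, 5.91 and 31.4 in late air and 2.88, 5.14 and 10.1 in late silica blood. These helicase subunits were highest in late air 25. The largest fold changes of the class were those of Mcm5 at 6 months (-1.06 ± 0.50, adjusted p = 0.658) and Cdc6 at 1 day (-0.48 ± 0.39, adjusted p = 1). Pcna was at 19.2, 23.4 and 28.9 CPM in early air, 8.06, 24.1 and 26.2 in early silica, 14.8, 18.6 and 61.2 in late air and 16.6, 18.9 and 21.4 in late silica blood. Rrm2 was at 17.2, 24.2 and 40.9 CPM in early air, 16.9, 30.0 and 44.1 in early silica, 23.4, 28.6 and 35.3 in late air and 21.7, 32.2 and 46.5 in late silica blood. The groups overlapped for both. Tk1 was at 215, 315 and 362 CPM in early air, 177, 264 and 604 in early silica, 176, 391 and 501 in late air and 220.1, 451 and 1093 in late silica blood. Its highest libraries were silica 11 early and silica 31 late. E2f1 was at 1.40, 2.12 and 2.26 CPM in early air, 1.72, 1.82 and 3.27 in early silica, 1.1, 2.44 and 7.23 in late air and 1.22, 2.60 and 5.37 in late silica blood, and Cdc6 at 0.769, 1.11 and 3.27 CPM in early air, 0.542, 0.990 and 1.63 in early silica, 0.982, 1.84 and 5.92 in late air and 0.794, 1.45 and 3.09 in late silica blood. The remaining genes named by size of fold change were Kif11 (-1.14 ± 0.49, adjusted p = 0.658), Bub1b (-1.11 ± 0.72, adjusted p = 0.658), Plk1 (-1.06 ± 0.67, adjusted p = 0.658), Mcm4 (-0.86 ± 0.40, adjusted p = 0.658) and Mcm6 (-0.71 ± 0.35, adjusted p = 0.658), all at 6 months. At 1 day they were Plk1 (-0.62 ± 0.63, adjusted p = 1), Kif11 (-0.49 ± 0.54, adjusted p = 1) and Bub1 (-0.41 ± 0.58, adjusted p = 1). The smallest fold changes were those of Foxm1 and Mcm7 at 1 day and of Tpx2 at 6 months, each at -0.01 on the log2 scale, and of Rrm1 at 6 months, at -0.07. Kif11 was at 2.19, 2.97 and 12.4 CPM in early air, 0.435, 2.74 and 8.25 in early silica, 2.63, 3.26 and 18.7 in late air and 1.69, 3.32 and 4.10 in late silica blood, and the ranges of air and silica overlapped at both times.

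Single libraries set most of the range in blood. Air 04 was the highest of its group for 35 of 42 genes. Its ratio to the median of the other 5 libraries had a median of 3.37 over the mitotic genes, up to 12.9 (Ccna2), and of 1.37 over the replication genes. Silica 16 was the highest of the early silica group for 22 genes, with median ratios of 2.25 for mitotic and 1.01 for replication genes. Late air 25 was highest for 34 genes, with median ratios of 3.40 for mitotic and 3.33 for replication genes, up to 14.2 (Kif20a), but it was farthest below that median for 3 genes, Tk1 (0.432), Cdc20 (0.372) and Ube2c (0.493). Late silica 31 was highest for 31 genes, and its largest ratios were those of Birc5 (4.02), Cdca8 (3.91) and Bub1 (3.46), with Tk1 at 2.94. Of the 24 blood libraries, air 25 thus held the highest value of 25 genes, among them 5 of the 6 Mcm genes, Pcna, Top2a and Kif11, and silica 31 that of 12 genes, among them Tk1, Mki67, Ube2c and Cdc20. These sets were read off after the values were seen. The share of all genes that were highest in each of these blood libraries was not counted. The counts of highest genes therefore cannot be called particular to the members. Erythroid markers summed to 299627 CPM in silica 31 and to 50649 CPM in air 25, the highest and the lowest of the 24 libraries, and natural killer and granular lymphocyte markers to 312 and 1840.4 CPM. Their composition factors were also the extremes of the series, at 0.521 and 1.93, and a lower factor raises every CPM of that library. The part of red cell precursors, lymphocytes or composition in these levels was not tested.

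**Figure D5:**
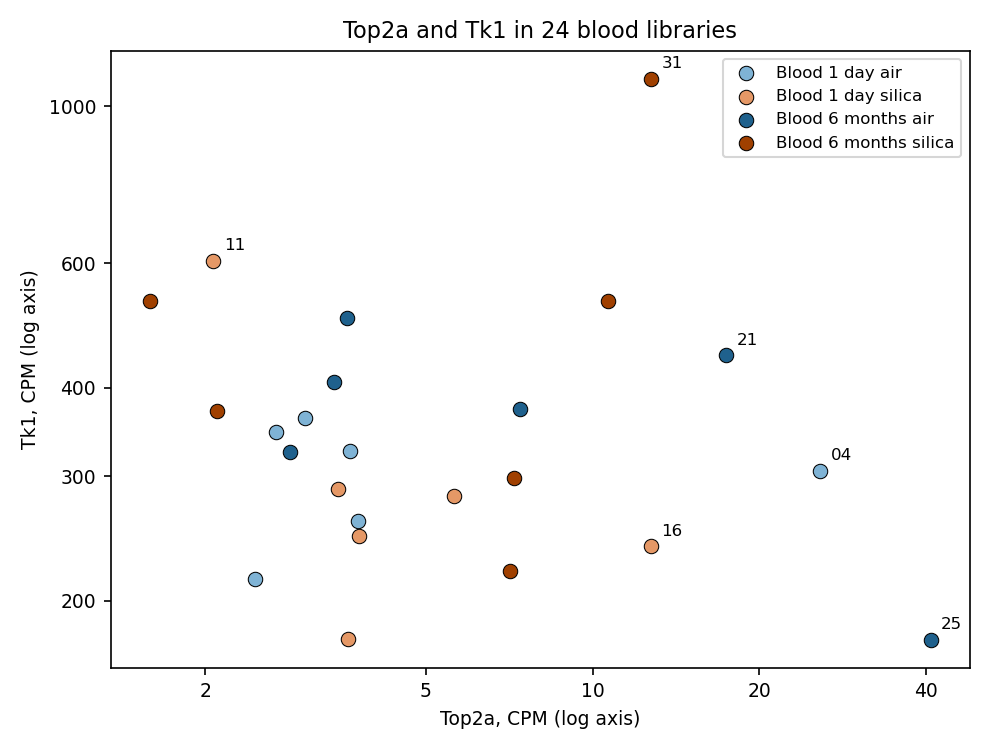
Each point is 1 of 24 blood libraries, with Top2a CPM against Tk1 CPM, both on log axes and coloured by group. Late air 25 has the highest Top2a and the lowest Tk1 value, and late silica 31 the highest Tk1 value.

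Whether silica acted differently in blood and lung was tested as an interaction at each time. At 1 day the silica effect in blood minus that in lung was negative for all 42 genes, with a median of -0.70, but edgeR called 0, against 0.0186% of 16148 genes called higher and 0.173% called lower. An unadjusted p under 0.05 was found for 6 members and for 6.38% of all genes. DESeq2 called 1 member lower, Prc1, against 0.508% of all genes. The largest differences were those of Cdc6 (-1.59 ± 0.59, adjusted p = 0.548), Plk1 (-1.36 ± 0.82, adjusted p = 0.845), Kif20a (-1.24 ± 0.94, adjusted p = 0.925) and Ccne1 (-1.18 ± 0.49, adjusted p = 0.652), followed among the replication genes by Mcm5 (-1.02 ± 0.51, adjusted p = 0.785) and Rrm2 (-0.88 ± 0.41, adjusted p = 0.741). The smallest were those of Mcm7 (-0.02 ± 0.19, adjusted p = 1) and Aurka (-0.17 ± 0.20, adjusted p = 0.979). Without lung air 04-08 the median was -1.46 and 3 genes were called lower, against 0.16% of all genes called lower and 0.0245% called higher. At 6 months the difference was positive for 41 genes, with a median of 0.94 over a median of -0.14 for all genes, and edgeR called 2 higher, against 0.614% of 16444 genes called higher and 0.559% called lower. These were Tk1 (2.36 ± 0.55, adjusted p = 0.0385) and the kinetochore gene Ndc80 (1.90 ± 0.40, adjusted p = 0.0231). Among the genes not called were Mki67 (2.01 ± 0.54, adjusted p = 0.0752), Ube2c (1.89 ± 0.52, adjusted p = 0.082), Rrm2 (1.11 ± 0.28, adjusted p = 0.0554) and Cdc6 (0.94 ± 0.66, adjusted p = 0.605). The smallest differences were those of Aurkb (-0.06 ± 0.55, adjusted p = 1) and Pcna (0.17 ± 0.46, adjusted p = 0.962). The count moved with single libraries. It ran from 0 to 9 when 1 library was left out, with 0 without either late air lung or without lung silica 34. It was 9 without blood air 25, against 2.62% of all genes, and 10 without both blood air 25 and silica 31, against 2.66%. With the replicate number as a block, pairing lung and blood samples of the same number, edgeR called 0 members, against 0% of 16353 genes in each direction. In that fit an unadjusted p under 0.05 was found for 12 members and for 7.94% of all genes. The other cycle genes gave no call at 1 day, with log2 differences between the tissues in brackets. The 49 other replication genes tested had a median of -0.39, and among the smallest p-values were those of Cdc7 (-1.03) and Fen1 (-0.63). The 66 other mitotic genes tested had a median of -0.76, and the smallest p-values were those of Cenpu (-1.98), Iqgap3 (-0.70) and Cenpi (-1.42). The 13 genes of cycle entry tested had a median of -0.08, and the smallest p-values were those of Ccnd1 (0.64), Cdk6 (-0.49) and Ccnd2 (-0.42). The 25 restraining genes tested had a median of -0.09, and the smallest p-values were those of Cdkn1b (0.47), E2f6 (-0.35) and Rbl1 (-0.70). At 6 months they gave 3 calls. The 49 other replication genes tested had a median of 0.35, and the smallest p-values were those of Rfc5 (1.07), Fam111a (1.54) and Mcm10 (1.0). Of 67 other mitotic genes, 2 were called higher and 0 lower, with a median of 1.03, and the smallest p-values were those of Hmgb2 (1.63), Smc4 (0.93) and Cenpn (1.32). Of 13 genes of cycle entry, 1 was called higher and 0 lower, with a median of 0.17, and the smallest p-values were those of Ccnd3 (1.14), E2f3 (1.31) and Ccnd1 (0.81). The 25 restraining genes tested had a median of 0.32, and the smallest p-values were those of Lin54 (0.67), Rbl2 (0.65) and Cdkn2c (0.82).

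Samples of lung and blood carried shared numbers, and the 2 tissues of a number did not always agree in member level. Lung samples 04 and 08 were near-identical, yet blood 04 stood at 3.5 and blood 08 at 2.14 as mean log2 CPM of the 42 genes. Lung samples 20 and 25 were near-identical, with blood at 2.41 and 3.84, and lung samples 30 and 31 were near-identical, with blood at 2.13 and 3.41. The late air lung with the highest member level, 19-24, had a blood sample, 19, at 2.34, within the range of the other blood libraries. In these 3 pairs of numbers 1 blood sample was high and the other was not.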

How the data were processed

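RNA was sequenced from lung and globin-depleted whole blood with a stranded messenger RNA kit, per the labels' protocols. The authors deposited estimated counts per gene from Salmon in 4 tables, 1 per tissue and time, for 46 samples. Per the submitters' processing notes, Salmon 1.10.1 and STAR 2.6.1d are listed with build Rnor_6.0, as are Trim Galore 0.6.7, cutadapt 3.4 and bcl2fastq 2.19, without their order. Every count column matched a sample's labels.

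The estimated counts were rounded to whole numbers. Lung samples of a group that differed at p under 0.05 in fewer than 10% of genes (chi-square, whole counts, mean of at least 20) were averaged, which left 41 libraries. edgeR 4.0.16 in R 4.3.3 was used with TMM factors, filterByExpr (minimum count 10, minimum total 15), the robust quasi-likelihood test and Benjamini-Hochberg adjustment over all genes, at 0.05. Each comparison was fitted on its own groups. Fold changes are log2, with standard errors after ±. The level over the members is the mean log2 CPM with a prior count of 2. Floors cover counting error only. The standard errors were derived from the log2 fold change and the F statistic of the test, so they include spread between libraries. The test was checked on simulated data with known changes. Of genes changed by 1 on the log2 scale, it recovered 82.6% in early lung and 35.8% in late lung. In blood it recovered 62.5% at 1 day and 59.6% at 6 months. For changes of 2 the shares were 94.7%, 79.0%, 92.7% and 91.7% in the same order.

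The members and the lists were chosen with earlier results of these data known. By the rule for named genes, 12 members (Mki67, Top2a, Cdk1, Ccnb1, Foxm1, Mybl2, Mcm2, Mcm5, Pcna, Rrm2, Tk1 and E2f1) and, in each class and comparison, the 3 members with the largest and the 1 with the smallest fold change were named, with the 3 smallest p-values of each list of cycle genes, except where a gene is not reported here. Alternatives were RLE factors, DESeq2 1.42.0, no filter, every library separate, all groups of a tissue in 1 fit, each library left out, and a replicate block for the comparisons of tissues. Lung and blood samples of the same number deviated together by correlations of -0.06 to 0.18 at 1 day and -0.08 to 0.09 at 6 months. The late air group held 2 such units, so both have the same value by construction. Low correlations cannot show whether the numbers pair the samples. The main tests did not use the numbers, and the replicate block did.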

Additional observations from a re-analysis of the deposited data

Results flagged for a closer look

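In 46 of 105 sets of values of 1 group, the highest or lowest library stood apart from the others by Dixon's 95% criterion, which chance gives in about 1 in 20 sets. The sets share libraries, so they are not independent. Early air blood 04 stood apart in mean log2 CPM over all 42 genes (3.5), the replication genes (4.31) and the mitotic genes (3.14), and in CPM of Mki67 (36.3), Top2a (25.7), Cdk1 (11.4), Ccnb1 (9.01), Foxm1 (4.28), Mcm2 (20.3) and Mcm5 (16.4). Early air lung 04-08 stood apart in mean log2 CPM over all 42 genes (4.15), the replication genes (4.94) and the mitotic genes (3.80), and in CPM of Mki67 (102), Top2a (63.8), Cdk1 (14.8), Ccnb1 (12.5), Foxm1 (11.6), Mybl2 (7.58), Mcm2 (46.5), Mcm5 (31.6), Rrm2 (29.7) and Tk1 (38.3). Late silica lung 30-31 stood apart in mean log2 CPM over all 42 genes (4.36), the replication genes (5.27) and the mitotic genes (3.96), and in CPM of Mki67 (118), Top2a (66.4), Mcm2 (71.5), Mcm5 (44.8) and Tk1 (30.5). Early silica lung 10 stood apart in CPM of Mki67 (89.7), Top2a (51.4), Cdk1 (16.1) and E2f1 (18.5). Early silica blood 16 stood apart in CPM of Top2a (12.7), Cdk1 (5.44) and Ccnb1 (4.6). Early silica blood 11 stood apart in CPM of Mybl2 (10.8), Mcm2 (19.4), Pcna (8.06), Tk1 (604) and E2f1 (3.27). Late air blood 25 stood apart in CPM of Mcm2 (51.3) and Pcna (61.2). Late silica blood 31 stood apart in CPM of Tk1 (1093). All of these were the highest of their group, except Pcna in early silica blood 11, which was the lowest. Effects that differed between groups were those of 40 genes in lung, where the silica effect at 6 months was lower than that at 1 day by a test of the difference, and of 2 genes, Tk1 and Ndc80, whose silica effect at 6 months was higher in blood than in lung.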

How the results depend on the processing

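The late lung count of 39 lower genes kept its direction under RLE factors, DESeq2, no filter, every library separate and all groups in 1 fit (39 to 41), and ran from 0 to 39 with 1 library left out. Over all genes in late lung, RLE factors, DESeq2 and every library separate called 9.84%, 12.6% and 20% lower. Fits without 1 silica library called 5.8% to 12.7% lower. The early lung count of 1 higher gene was 4 with DESeq2, 2 with every library separate, 2 with all groups in 1 fit, and 1 to 36 with 1 library left out. Over all genes in early lung, DESeq2 and every library separate called 7.99% and 8.73% higher, and the fits with 1 library left out called 5.35% to 8.74%. The count of 40 lower genes in the late minus early lung effect ran from 25 to 41. For blood minus lung, the 0 lower genes at 1 day became 1 with DESeq2, against 0.508% of all genes, and 0 to 3 with 1 library left out. The 2 higher genes at 6 months became 1 with RLE factors, 7 with DESeq2, 9 with every library separate, 0 with the replicate block, 10 without blood air 25 and silica 31 (chosen after seeing the data), and 0 to 9 with 1 library left out. Over all genes at 6 months, 0.62% were called higher with RLE factors, 1.7% with DESeq2, 1.67% with every library separate and 2.66% without blood air 25 and silica 31. The replicate block, which pairs samples by shared number only, was fitted for the blood minus lung comparisons alone, and at 1 day it left the count at 0. The block called 0% of all genes in each direction at both times, so its counts of 0 are not particular to the members. The blood medians ran from -0.33 to 0.0982 at 1 day and from -0.55 to 0.0338 at 6 months with 1 library left out, and turned positive without air 04 and air 25. The medians without lung air 04-08 were 1.40 in early lung, -2.95 for late minus early lung and -1.46 for blood minus lung at 1 day. The causes were not tested. Late lung rests on 2 air libraries, and where 1 was left out the other was assumed to vary like the silica group. In blood, low CPM of Cdk1, Ccnb1, Foxm1 and Cdc6 limits what can be detected, and no absence of an effect is shown.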
